A study of Homo sapiens with 12 samples.

Results

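The 9 genes SOS1, SOS2, GRB2, GAB1, PTPN11, NRAS, HRAS, RASA1 and NF1, which carry the signal from a receptor tyrosine kinase to RAS or turn it off, were followed in human hepatocellular carcinoma cells and were chosen by name from the 11548 genes of the deposited expression table. PTPN11 encodes the phosphatase SHP2, NRAS and HRAS are RAS genes, SOS1 and SOS2 exchange factors, GRB2 and GAB1 adaptors, and RASA1 and NF1 GTPase activators. All 9 members were found, and all 9 were measured in every one of the 12 libraries. The 3 cell lines were Hep3B, MHCC97H and Huh7, and each was left untreated, given the mTOR kinase inhibitor AZD8055 at 100 nM, given compound #57, an allosteric inhibitor of SHP2, or given both at 100 nM and 5 µM. The dose of compound #57 given alone is not stated in the labels. Hep3B and Huh7 cells were exposed for 48 h and MHCC97H cells for 24 h, so the line MHCC97H and the shorter exposure cannot be told apart. Each line and treatment gave 1 library, and the cell lines are the only replicates of a treatment. The labels mention neither a genetic change nor a solvent control for any group.

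RAS proteins are small GTPases that switch on when they bind GTP, and activated RAS drives the kinases RAF, MEK and ERK. A phosphorylated receptor binds GRB2, which brings SOS to the membrane, and SOS loads RAS with GTP. GAB1 is a docking protein that recruits SHP2, and SHP2 activity is needed for full RAS activation below most receptors. RASA1 and NF1 (neurofibromin) act the opposite way and speed the hydrolysis of GTP on RAS. ERK also drives the transcription of its own inhibitors, among them DUSP6, which removes phosphate from ERK. The series asked what an mTOR inhibitor and a SHP2 inhibitor do to these cells alone and together.

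Transcripts were counted in poly(A)-selected RNA, and values are log2(reads per 10000000 + 1) unless another scale is named. The libraries held between 10659951 and 15957252 reads, and the members between 119 and 7045 reads in a library, so counting error was small beside the differences discussed for most members and widest for HRAS. The 13 hepatocyte markers took 3.02% to 6.55% of reads in Hep3B and 3.86% to 5.44% in Huh7, against 0.530% to 0.618% in MHCC97H. TTR, the transthyretin gene, had at most 3 reads in every MHCC97H library, GPC3 3 to 6, APOA2 3 to 8, APOA1 4 to 10 and SERPINA1 13 to 22. In limma 11 of the 13 markers were lower in MHCC97H than in Hep3B, with a median of -8.45. The keratins KRT8 (43735 to 60890 reads) and KRT18 (15721 to 24563), which other epithelia also express, made up most of the marker reads of MHCC97H, so its defining hepatocyte markers were mostly at or near 0. Of 10 markers of other cell types, 4 were in the table (COL1A1 and COL1A2 of fibroblasts, PECAM1 of endothelium and KRT19 of bile ducts), and together they took 0.0168% to 0.0655% of reads. Each library came from a culture of 1 cell line. In its bulk RNA, fewer cells that express a gene and less of its RNA per cell cannot be told apart.

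On GRCh38, SOS1 spans chr2:38962206-39124345 on the minus strand with 23 exons in its canonical transcript. SOS2 spans chr14:50117130-50231578 on the minus strand, also with 23 exons. GRB2 lies at chr17:75318076-75405709 on the minus strand, NF1 at chr17:31094927-31382116, GAB1 at chr4:143336876-143474565 and RASA1 at chr5:87267883-87391931. PTPN11 spans chr12:112418351-112509918, NRAS chr1:114704469-114716771 and HRAS, the shortest, chr11:532242-537321. Exons of HRAS, RASA1 and NF1 overlap genes on the opposite strand (ENSG00000289997, CCNH and MIR4733HG), and the use of strand in counting is not given in the sources used here. Annotated pseudogene copies exist for NF1 (12) and PTPN11 (5), none of them in the table, so reads shared with a copy could affect the levels of both genes.

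The promoters of SOS1 and SOS2, whose transcripts rose together, and of GRB2, whose transcript fell, are shown because these genes moved in opposite directions under the combination. Each is the 250 bases before the start of the canonical transcript from RefSeq (GRCh38.p14), read 5′ to 3′ on the minus strand at chr2:39121052-39121301, chr14:50231579-50231828 and chr17:75405679-75405928. Capitals mark the letters GGGCGG or their reverse complement, the core bound by SP factors.
SOS1: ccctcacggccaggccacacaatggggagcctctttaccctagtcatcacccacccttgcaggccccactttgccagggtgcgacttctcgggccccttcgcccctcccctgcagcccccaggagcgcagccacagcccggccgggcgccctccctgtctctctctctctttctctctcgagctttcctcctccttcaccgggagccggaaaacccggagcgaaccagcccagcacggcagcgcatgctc
SOS2: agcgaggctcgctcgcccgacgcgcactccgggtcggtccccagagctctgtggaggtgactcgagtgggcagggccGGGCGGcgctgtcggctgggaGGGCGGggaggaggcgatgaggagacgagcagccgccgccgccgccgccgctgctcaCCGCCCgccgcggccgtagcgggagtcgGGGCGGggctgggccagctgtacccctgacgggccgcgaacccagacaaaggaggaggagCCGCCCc
GRB2: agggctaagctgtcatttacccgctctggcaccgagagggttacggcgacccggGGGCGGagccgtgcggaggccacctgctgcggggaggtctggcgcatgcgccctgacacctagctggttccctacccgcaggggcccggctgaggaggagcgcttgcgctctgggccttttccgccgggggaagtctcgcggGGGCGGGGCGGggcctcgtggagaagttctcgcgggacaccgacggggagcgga
The window of SOS2 held 5 matches, that of GRB2 held 3, of which a pair overlap by 1 base, and that of SOS1 held 0. Among 35116 promoter windows of the same length, 42.6% held at least 1. A further 4 motifs were searched on both strands: the AP-1 site TGANTCA, the FOXO site GTAAACA, the E-box CACGTG and the ETS site CCGGAAGT, held by 6.57%, 2.98%, 6.34% and 3.42% of all windows. None of them was found in these 3 windows. The G and C content was 67.2% for SOS1, 76.8% for SOS2 and 71.6% for GRB2, against a median of 58.0% over all windows. A match is a string of letters and shows no binding.

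Levels of different genes were compared as RPKM, in which reads are scaled by the length of the canonical transcript and the size of the library. PTPN11 was the most abundant of the 9 by median, at 63.3 RPKM with a range of 47.0 to 83.3 over the 12 libraries. GRB2 followed at 51.1 RPKM (32.6 to 83.0) and NRAS at 42.0 (15.7 to 59.8). The other 6 had medians of 14.4 (HRAS), 12.9 (NF1), 10.6 (SOS1), 7.99 (SOS2), 7.57 (RASA1) and 5.97 (GAB1). The ranges of neighbours in this order overlapped in every case, so the order holds for medians only. With the length of the longest transcript the median of HRAS was 7.96 RPKM, below that of SOS2 at 7.99. GAB1 had the widest spread between libraries, 3.07 on the log2 scale, and PTPN11 the narrowest, 0.83.

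**Figure D1:**
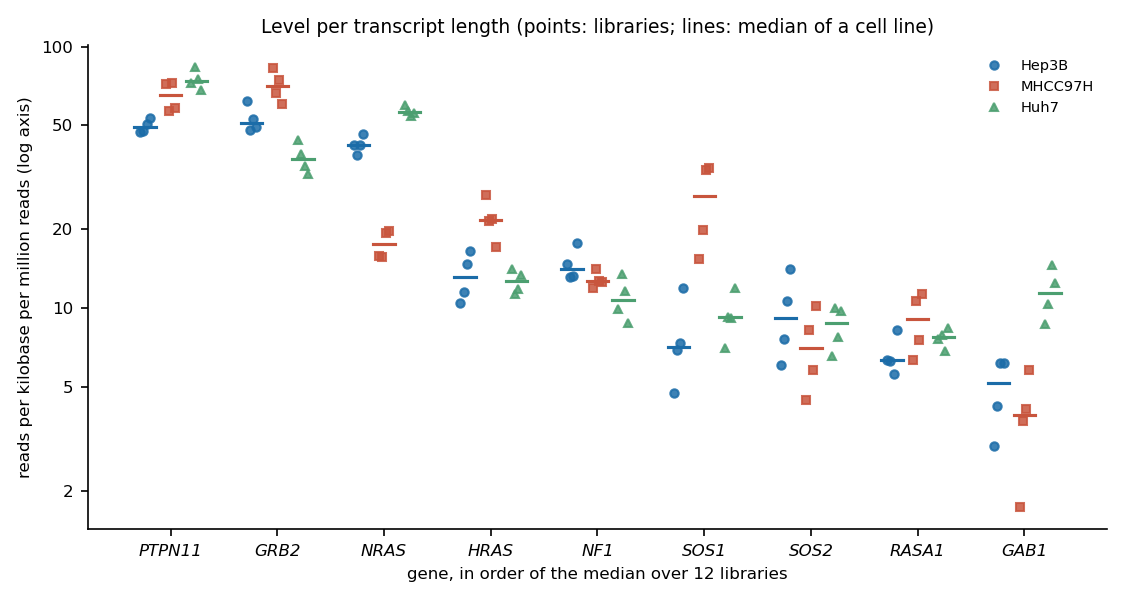
RPKM over the canonical transcript (log axis) for the 9 genes; each point is 1 library, with the treatments of a line side by side, and the bar is the median of the 4 libraries of a line. NRAS lies at 15.7 to 19.8 in MHCC97H and at 38.4 to 59.8 in the other lines, and SOS1 is highest in MHCC97H.

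The cell lines differed in which paralog of a pair they used. NRAS was the more abundant RAS gene of this pair in Hep3B, where the ratio of its RPKM to that of HRAS lay between 2.80 and 4.02, and in Huh7, where it lay between 4.14 and 5.03. In MHCC97H the ratio was 0.585 untreated, 0.734 with AZD8055, 0.880 with compound #57 and 1.16 with both. Whether HRAS exceeded NRAS in MHCC97H depended on the transcript length used, since with the longest transcripts the same ratios were 1.06, 1.33, 1.60 and 2.10. SOS1 exceeded SOS2 in all 4 MHCC97H libraries, by 2.42 to 5.85 times per length. In Hep3B the same ratio was 0.686 to 0.903 and in Huh7 0.923 to 1.23. Neither range touched that of MHCC97H.

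The line comparisons were tested with limma over all genes with treatment as a further term, 4 libraries a line. These 4 are the 4 treatments, none of them repeated within a line. The SD of a line therefore includes its drug responses. Of the 9 members, 6 passed a Benjamini-Hochberg adjusted p of 0.05 between MHCC97H and Hep3B, where 67.8% of all genes did. Between MHCC97H and Huh7 5 of 9 passed, against 70.2% of all genes, and between Hep3B and Huh7 5 of 9, against 55.1%. The members' shares lay near or below those of all genes, and nothing particular to them is read from the counts. The 4 largest member differences all involved MHCC97H, the line with the shorter exposure and the low hepatocyte markers, and the part of either in these differences was not tested.

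NRAS averaged 9.57 ± 0.18 (SD, n = 4 libraries) in MHCC97H, 10.83 ± 0.11 in Hep3B and 11.26 ± 0.06 in Huh7. None of the 3 ranges overlapped. In limma NRAS was 1.26 lower on the log2 scale in MHCC97H than in Hep3B (log2 difference -1.26, SE 0.10, adjusted p = 2.41e-06) and lower by a log2 difference of -1.69 than in Huh7 (adjusted p = 2.41e-07). HRAS had the opposite order. It averaged 7.86 ± 0.27 in MHCC97H, 7.14 ± 0.31 in Hep3B and 7.09 ± 0.15 in Huh7, and was higher in MHCC97H by 0.72 over Hep3B (limma adjusted p = 0.00737) and by 0.77 over Huh7 (adjusted p = 0.00469). Hep3B and Huh7 did not pass the test for HRAS, with a difference of 0.05 and a 95% interval of -0.38 to 0.48.

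SOS1 stood at 11.09 ± 0.58 in MHCC97H, 9.68 ± 0.31 in Huh7 and 9.35 ± 0.55 in Hep3B (SD, n = 4 libraries). All 4 MHCC97H libraries lay above all 8 others. The limma difference was 1.74 to Hep3B (SE 0.14, adjusted p = 2.97e-06) and 1.41 to Huh7 (adjusted p = 1.15e-05). SOS2 did not pass a line test, with 8.98 ± 0.54 in Hep3B, 8.85 ± 0.29 in Huh7 and 8.56 ± 0.53 in MHCC97H. Its limma difference between MHCC97H and Hep3B was -0.42 at an adjusted p of 0.0501, which became 0.0498 with 10 added to the linear values and 0.0151 without the AZD8055 libraries.

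GAB1 was highest in Huh7, at 9.78 ± 0.32, against 8.51 ± 0.51 in Hep3B and 8.10 ± 0.73 in MHCC97H. All 4 Huh7 libraries lay above the other 8. In limma it was lower in Hep3B than in Huh7 by a log2 difference of -1.28 (adjusted p = 1.72e-04) and lower in MHCC97H than in Huh7 by -1.68 (adjusted p = 1.05e-05). GRB2 had the order MHCC97H (11.18 ± 0.20), Hep3B (10.76 ± 0.17), Huh7 (10.26 ± 0.19), and each of the 3 steps passed in limma, the largest being 0.92 between MHCC97H and Huh7 (adjusted p = 9.01e-06).

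PTPN11 was lowest in Hep3B, at 11.56 ± 0.09, against 11.94 ± 0.19 in MHCC97H and 12.15 ± 0.12 in Huh7. The limma difference of Hep3B to Huh7 was -0.59 (adjusted p = 0.00209) and that of MHCC97H to Hep3B 0.38 (adjusted p = 0.0157), while MHCC97H and Huh7 did not pass (difference -0.21, 95% interval -0.47 to 0.06). For RASA1 the 1 line comparison to pass was MHCC97H against Hep3B, at 0.41 (limma adjusted p = 0.0224). It was lost without the AZD8055, the compound #57 or the combination libraries (adjusted p = 0.135, 0.0793 and 0.0684 in limma) and with the line as the only term (0.0848). The call of PTPN11 between MHCC97H and Hep3B was lost without the untreated libraries (limma adjusted p = 0.110) and without the compound #57 libraries (0.0736), and that of HRAS without the untreated libraries (0.0514). For NF1 the only difference to pass was 0.44 between Hep3B and Huh7 (limma adjusted p = 0.0301), which was lost without the untreated (0.131) or the combination libraries (0.159).

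Treatments were compared over the 3 lines in limma with the line as a block. The combination changed 5 of the 9 members against untreated cells, 4 higher and 1 lower. SOS1, SOS2 and GAB1 about doubled, RASA1 rose 1.37-fold and GRB2 fell, to a level 1.32-fold lower. PTPN11, NRAS, HRAS and NF1 did not pass the test. Over all genes 36.0% were called in this comparison, 20.9% higher and 15.1% lower. The median log2 difference of the 9 was 0.12, against 0.09 for all genes.

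SOS1 rose from 8.72 to 10.05 in Hep3B, from 10.42 to 11.58 in MHCC97H and from 9.29 to 10.06 in Huh7. The value with AZD8055 alone was 9.26, 10.79 and 9.68 in the same order, and with compound #57 alone 9.35, 11.55 and 9.68. Every treated library was thus above the untreated library of its line. The limma difference under the combination was 1.09 (SE 0.17, 95% interval 0.72 to 1.46, adjusted p = 0.00301), a 2.12-fold rise. In MHCC97H the library with compound #57 alone had already reached the level of the combination (1.14 against 1.16 above untreated), whereas in Hep3B the combination went 0.70 beyond compound #57.

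SOS2 went from 8.38 to 9.61 in Hep3B, from 7.94 to 9.14 in MHCC97H and from 8.49 to 9.07 in Huh7. With AZD8055 it read 8.72, 8.83 and 9.10, and with compound #57 9.20, 8.32 and 8.74. In Huh7 and MHCC97H the AZD8055 library was the higher of the single drugs, and in Hep3B the compound #57 library was. The difference under the combination was 0.996 in limma (SE 0.20, 95% interval 0.55 to 1.44, adjusted p = 0.00621), or 1.99-fold.

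GAB1 rose from 7.85 to 8.90 in Hep3B, from 7.08 to 8.82 in MHCC97H and from 9.41 to 9.92 in Huh7. Under AZD8055 it was 8.36, 8.17 and 9.66, and under compound #57 8.91, 8.32 and 10.15. Compound #57 alone matched or exceeded the combination in Hep3B and Huh7, while MHCC97H rose further with both drugs. Under the combination the limma difference was 1.10 (SE 0.20, 95% interval 0.66 to 1.54, adjusted p = 0.00444), a 2.14-fold rise.

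GRB2, whose SH2 domain binds phosphorylated receptors and whose SH3 domains hold SOS, fell from 10.99 to 10.66 in Hep3B, from 11.41 to 10.95 in MHCC97H and from 10.49 to 10.06 in Huh7. It was also below untreated in the 6 libraries of a single drug, at 10.62, 11.09 and 10.32 with AZD8055 and 10.76, 11.26 and 10.17 with compound #57. The limma difference under the combination was -0.40 (SE 0.10, 95% interval -0.64 to -0.17, adjusted p = 0.0160).

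RASA1 read 8.23, 8.23 and 8.502 untreated in Hep3B, MHCC97H and Huh7, and 8.61, 9.07 and 8.64 with both drugs. AZD8055 alone moved it in MHCC97H (8.99) and little in Hep3B (8.23) or Huh7 (8.56). Compound #57 gave 8.05, 8.48 and 8.34. The difference under the combination, 0.46 in limma (SE 0.16, adjusted p = 0.0480), passed by a narrow margin and did not pass with library medians set equal or with voom on the reads.

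The 5 calls depended on which lines and terms were in the fit. Without the line as a block 0 members passed (1 had an unadjusted p under 0.05). Without Huh7 0 passed in limma (5 at an unadjusted p under 0.05), and 11 genes were called over the whole table. There SOS1 had 1.25 (limma adjusted p = 0.0617), SOS2 1.21 (0.0718) and GAB1 1.39 (0.0617). GRB2 had -0.39 (0.142) and RASA1 0.615 (0.122), with 3 residual degrees of freedom rather than 6. Without Hep3B, and equally without MHCC97H, 3 remained called: SOS1, SOS2 and GAB1.

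Under the combination the remaining 4 members gave no direction common to the lines. PTPN11, the gene of the drug target, moved by 0.18 in Hep3B, -0.30 in MHCC97H and -0.09 in Huh7 under the combination, and the limma difference was -0.07 (95% interval -0.38 to 0.23). In untreated cells PTPN11 read 11.48, 12.10 and 12.11 in Hep3B, MHCC97H and Huh7, and with compound #57 alone 11.59, 12.11 and 12.15, a limma difference of 0.05 (95% interval -0.25 to 0.36). With AZD8055 it read 11.50, 11.75 and 12.30. No treatment moved PTPN11 past the limma threshold.

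NRAS read 10.83, 9.42 and 11.34 untreated in Hep3B, MHCC97H and Huh7, and 10.97, 9.74 and 11.23 with both drugs. The changes were 0.14, 0.33 and -0.10, each with a 95% counting interval that left out 0, and Huh7 went against the others. Over the lines the limma difference was 0.12 (95% interval -0.14 to 0.38). HRAS read 6.82, 8.18 and 7.24 untreated and 7.48, 7.52 and 7.18 with both. It rose by 0.66 in Hep3B (95% counting interval 0.34 to 1.003) and fell by 0.66 in MHCC97H (interval -0.90 to -0.42), so that these lines, apart before treatment, met under the combination. The limma difference over the lines was -0.02 (95% interval -0.51 to 0.48). The change of NF1 was 0.27 for Hep3B, 0.08 for MHCC97H and -0.17 for Huh7, with a limma difference of 0.06 (95% interval -0.33 to 0.44). These counting intervals cover counting error only and say nothing of the spread between cultures.

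Neither drug alone brought a member past the limma threshold. AZD8055 called 0 of 9, against 2.96% of all genes, with 4 members at an unadjusted p under 0.05 in limma and the same number with voom. Those 4 were GAB1 (0.62, adjusted p = 0.0885), SOS2 (0.61, adjusted p = 0.0909), SOS1 (0.43, adjusted p = 0.129) and GRB2 (-0.29, adjusted p = 0.116). Each had the same sign in 3 of 3 lines, as did 28.4% (higher) and 25.7% (lower) of all genes. RASA1 (0.27), NF1 (0.17), HRAS (-0.17), NRAS (-0.07) and PTPN11 (-0.04) had limma intervals that included 0.

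Compound #57 alone called 0 of 9 with limma, against 0.00866% of all genes, which is 1 gene. At an unadjusted p under 0.05 there were 4 members in limma and 3 with voom. GAB1 differed by 1.01 (adjusted p = 0.0912), SOS1 by 0.72 (adjusted p = 0.0912), SOS2 by 0.48 (adjusted p = 0.201) and GRB2 by -0.24 (adjusted p = 0.225), each with 1 sign in 3 of 3 lines, where 30.6% of all genes were higher and 19.7% lower in all 3. The rest lay between -0.03 (RASA1) and 0.06 (NF1). Without MHCC97H, GAB1 passed the limma threshold, as did 778 genes in all.

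The single drugs and the combination share the untreated libraries, so their values are not independent of each other. Set directly against AZD8055 alone, the combination called 0 members and 0.0% of all genes in limma, with 2 members at an unadjusted p under 0.05 (1 with voom). SOS1 was 0.65 higher (adjusted p = 0.188), GAB1 0.48 higher (adjusted p = 0.303), SOS2 0.39 higher (adjusted p = 0.396), and GRB2 differed by -0.12 (adjusted p = 0.614). Against compound #57 alone the combination called 0 members, where 4.18% of all genes were called, with 2 members at an unadjusted p under 0.05 (3 with voom). SOS2 differed by 0.52 (limma adjusted p = 0.145), RASA1 by 0.48 (adjusted p = 0.104), SOS1 by 0.37 (adjusted p = 0.201) and GAB1 by 0.09 with an interval of -0.35 to 0.52.

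The combination was also set against the sum of the changes under the single drugs on the log2 scale. No member and 0.0% of all genes passed in limma, 0 members at an unadjusted p under 0.05 and 0 with voom. Member values ran from -0.53 for GAB1 (95% interval -1.15 to 0.09) to 0.21 for RASA1 (interval -0.29 to 0.72). The intervals are wide, and a departure from the sum of moderate size was not detectable here.

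A further limma test asked whether the effect of a drug differed between the lines. For AZD8055 0 members passed, against 5.03% of all genes, with 1 at an unadjusted p under 0.05 both in limma and with voom (SOS2, effects 0.37 in Hep3B, 0.85 in MHCC97H and 0.47 in Huh7, adjusted p = 0.190). For compound #57 0 members passed, against 4.90% of all genes, with 3 at an unadjusted p under 0.05 by either tool. SOS2 came closest, where Hep3B had an effect of 0.86, MHCC97H of 0.34 and Huh7 of 0.11 (limma adjusted p = 0.0768). SOS1 had effects of 0.71, 0.96 and 0.38 (adjusted p = 0.152) and HRAS of 0.51, -0.31 and -0.00 (adjusted p = 0.139).

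Members were also set against each other over the 12 libraries after the mean of each line was taken off, as a description only, since the libraries share lines and treatments. Pearson r was 0.83 between SOS1 and GAB1, 0.81 between SOS2 and GAB1, 0.76 between SOS1 and SOS2 and 0.76 between SOS2 and RASA1. GRB2 ran the other way, at -0.78 with GAB1, -0.75 with SOS2 and -0.69 with SOS1. PTPN11 was at most 0.46 with any member in the positive direction (GRB2) and -0.55 with RASA1. By the same measure the genes most like PTPN11 were BAZ1B (0.93), C12orf65, SLBP, BTG3 and WHSC1. For NRAS they were DNAJC27 (0.93), SGTB, METTL15, RNF169 and RFK, and for HRAS TUBB2A (0.88), UXS1, NPLOC4, ZNF746 and PLIN2.

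Other genes of the pathway were taken from 7 lists, of which 64 of 77 genes were in the table. Under the combination 21 of the 64 rose and 8 fell in limma, with a median of 0.23. Over all genes 20.9% rose and 15.1% fell, with a median of 0.09, and the counts of each list are to be read beside these, since no list was tested. With library medians set equal the split was 16 and 10, and over all genes the share of calls that were higher went from 58.0% to 47.2%. Centring shifts the changes in MHCC97H by 0.10 under the combination and by 0.11 under compound #57. Without Huh7 0 of the 64 passed, without Hep3B 8 rose and 6 fell, and without MHCC97H 18 rose and 13 fell. With only the 6 libraries compared 7 rose and 8 fell, and without the line as a block 0 passed. Over all 11548 genes 11 rose and 0 fell without Huh7, and 1030 rose and 767 fell without Hep3B. The same counts were 2067 and 1711 without MHCC97H, and 1021 and 868 with only the 6 libraries compared.

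Of 15 other adaptors and docking proteins 7 rose and 1 fell, against 20.9% and 15.1% of all genes, and the list median was 0.72. The largest rise was in SHC2, by 2.60 (limma adjusted p = 0.00496), from only 15 reads in untreated MHCC97H. GAB2, the closest relative of GAB1, rose by 1.23 (adjusted p = 0.00292), and its changes in Hep3B, MHCC97H and Huh7 were 1.24, 1.16 and 1.30. GRB7 (1.22), FRS3 (1.10), PTPN6 (0.82), DOK4 (0.81) and CBLB (0.72) also rose. PTPN6 encodes SHP1, the relative of SHP2 that is best known as an inhibitor of receptor signalling in blood cells, and CBLB a ubiquitin ligase that acts against receptors. CRKL, an adaptor of the CRK family, fell by 0.50. Without Hep3B 4 of the 15 were higher and 0 lower, with only the 6 libraries compared also 4 and 0, and CBLB was lost with any 1 line left out.

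Among exchange factors 3 of 8 listed were in the table, and RAPGEF2 (0.93) and RAPGEF1 (0.74), which act on RAP rather than on RAS, rose, RAPGEF1 being lost without Hep3B (limma adjusted p = 0.0829) and with only the 6 libraries compared (0.0719). Of 10 RAS GTPase activators and their partners, 3 rose and 2 fell. Those that rose included RASA4 (0.94) and RASA2 (0.49), and RASA4 has near-identical copies that counting may split. SPRED2, which brings NF1 to the membrane and is also induced by ERK signalling, fell by 0.72, and G3BP1 fell by 0.47, a call lost without Hep3B (limma adjusted p = 0.0774) and with only the 6 libraries compared (0.0799). SPRED1 had -0.90 and missed the threshold (limma adjusted p = 0.0610), but passed with medians set equal (0.044), with voom (0.0471), with only the 6 libraries compared (0.0317) and without MHCC97H (0.0374). RASA4 was lost with medians set equal (0.0525) and without MHCC97H (0.116), and RASA2 with any 1 line left out. With only the 6 libraries compared the list had 0 higher and 2 lower, SPRED1 and SPRED2. Of the activators among the members, RASA1 rose and NF1 did not pass.

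RAS-related GTPases and the SHOC2 complex had 8 of 10 higher and 0 lower in limma, with a median of 0.43, where all genes had 20.9% higher, 15.1% lower and a median of 0.09. With library medians set equal 4 of 10 were higher, without Hep3B 2, without MHCC97H 6 and with only the 6 libraries compared 2. MRAS, which with SHOC2 and PPP1CB forms the phosphatase that opens RAF, rose by 2.13 (limma adjusted p = 0.00618), from 15 reads to 52 in MHCC97H and from 219 to 2401 in Hep3B. RRAS rose by 1.39 (adjusted p = 0.00340) and was the 1 pathway gene called under AZD8055 alone, at 1.28 (limma adjusted p = 0.0335). That call was lost without Huh7 (limma adjusted p = 0.366), without Hep3B (0.113), with only the 6 libraries compared (0.0641) and without the block (1.0). RRAS2 (0.70), RIT1 (0.66), RALA (0.44), SHOC2 (0.41), PPP1CB (0.39) and RAP1A (0.34) passed with smaller values. With medians set equal the last 4 of these were not called (limma adjusted p = 0.0542 for RALA, 0.0623 for SHOC2, 0.0672 for PPP1CB and 0.10 for RAP1A), and RAP1A was not called with voom (0.0631). RAP1A and PPP1CB were also lost with any 1 line left out. NRAS and HRAS, the classical RAS genes among the members, did not pass in the same comparison.

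Of 7 genes for the lipid modification and transport of RAS, 1 changed: ICMT, the methyltransferase of the RAS C terminus, fell by 0.81 (limma adjusted p = 0.00709) and was also lower with both drugs than with compound #57 alone (-0.83, limma adjusted p = 0.0332). The latter call was lost when Huh7, Hep3B or MHCC97H was left out (limma adjusted p = 0.410, 0.119 and 0.0745), with only the 6 libraries compared (0.0582) and without the block (1.0). FNTA, a subunit of farnesyltransferase, had 0.27 and was not called. Of 10 kinases of the RAF, MEK and ERK tiers, BRAF rose by 0.49 (limma adjusted p = 0.0201) and none fell, while KSR1 had -0.50 and did not pass (adjusted p = 0.0728). The BRAF call was lost without Huh7, Hep3B or MHCC97H (limma adjusted p = 0.096, 0.163 and 0.0547) and with only the 6 libraries compared (0.102), and KSR1 passed with medians set equal (0.0457).

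ERK target genes are a transcriptional readout of the pathway. Of 9, 4 fell and 0 rose in limma, against 15.1% and 20.9% of all genes, with a list median of -2.45. The log2 differences were -3.51 for EGR1 (limma adjusted p = 0.0324), -2.67 for ETV4 (adjusted p = 0.0131), -2.495 for ETV5 and -2.45 for DUSP6 (adjusted p = 0.0235). SPRY4 had -2.65 and did not pass (adjusted p = 0.0831), nor did DUSP5 (-1.18) and SPRY2 (-0.82). DUSP4 and PHLDA1, named after their values were seen, went the other way at 1.25 (limma adjusted p = 0.0786) and 0.40. Untreated and with both drugs, DUSP4 had 38 and 326 reads in Hep3B, 692 and 1417 in Huh7, and 1900 and 1186 in MHCC97H. These calls moved with the setting. EGR1 was lost with voom (-2.40, adjusted p = 0.118) and without Hep3B (limma adjusted p = 0.0912). SPRY4 passed with 10 added (limma adjusted p = 0.0305), with voom (0.0265), with only the 6 libraries compared (0.0227), without Hep3B (0.0493) and without MHCC97H (0.0459). DUSP5 (0.0291) and SPRY2 (0.039) passed with voom, so that 6 of 9 fell there. Without MHCC97H 7 fell and 2 rose, DUSP4 among the latter (2.17, limma adjusted p = 0.00713). DUSP6 read 985 reads untreated and 80 with both drugs in Hep3B, 2300 and 921 in MHCC97H, and 2267 and 339 in Huh7. Under compound #57 alone the list median was -3.02, and DUSP6 (-3.36), ETV4 (-3.25) and SPRED2 (-1.01) all had an adjusted p of 0.0912 in limma, as GAB1 and SOS1 did in the other direction. Without MHCC97H these 3 passed in limma, DUSP6 at -4.18 (adjusted p = 0.0366), ETV4 at -3.95 (adjusted p = 0.0366) and SPRED2 at -1.25 (adjusted p = 0.0252). In that fit 3 of the 64 pathway genes rose and 9 fell under compound #57. Over all 11548 genes 467 rose and 311 fell there.

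Cell type markers moved in the same comparison. Of 13 hepatocyte markers 2 rose (HNF4A by 0.84 and KRT8 by 0.44) and 2 fell (among them APOB, at -1.47) in limma, with a median of 0.06. KRT8 was lost with medians set equal (limma adjusted p = 0.0889), with 10 added (0.0512) and with any 1 line left out, and HNF4A with only the 6 libraries compared (0.0596) and without Huh7 (0.074), as was APOB without Huh7 (0.0978). APOA1 had 0.89 and did not pass, but did with voom (0.0394) and with only the 6 libraries compared (0.042). Of the 4 markers of other cell types, COL1A1 rose by 2.15 (adjusted p = 0.0289), from 30 to 189 reads in Hep3B, from 13 to 29 in MHCC97H and from 147 to 800 in Huh7, a call lost without Hep3B (limma adjusted p = 0.0784) and without Huh7 (0.0989). The part of these shifts in the changes of the members was not tested.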

How the data were processed

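RNA was sequenced from 12 cultures, 1 library for each of 3 cell lines and 4 treatments. Per the file's values and the labels, the deposited table by the authors holds log2 values: each library's reads were brought to a total of 10000000 and 1 was added, and genes without reads carry 0.001. They were made from stranded poly(A) libraries aligned to hg38. Aligner, counter and annotation are not given in the sources used here. All linear values were whole multiples of 1 step per library within 0.1 read, which gave back whole reads. Of the names, 4 stood on 2 lines and 18 had become date numbers, and no member was among either.

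limma 3.58.1 (R 4.3.3) was fitted over all 11548 genes with treatment and cell line as terms and Benjamini-Hochberg adjustment at 0.05. The line served as the pairing, since libraries of the same number come from the same line. A line by treatment model leaves no residual degrees of freedom, so line differences were tested on drug effects pooled over the other drug. Within a line, changes carry 95% Clopper-Pearson intervals for the reads and no p. P-values over lines set a mean difference against the residual spread of these single cultures of different lines. That spread holds line differences in drug response, with the 24 h and 48 h exposures among them, as well as variation between cultures. Lengths came from GENCODE release 44 and promoters from RefSeq. Alternatives were adding 10 rather than 1, keeping 75% of genes by mean level, libraries centred on their medians, voom with TMM on the reads, no block, only the libraries compared, and each line or treatment left out. On simulated data for AZD8055 against untreated with 200 of 11548 genes changed, 0.0% were recovered at a log2 change of 0.5, 59.0% at 1 and 92.5% at 2. Named genes were all members, the genes of the other lists that limma called, and the 2 of each list with the largest change shared in direction by all 3 lines. Members and lists were chosen with earlier results of these data known. The values of 2 genes of the other lists are not reported here.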

Additional observations from a re-analysis of the deposited data

Results flagged for a closer look

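In these 5 cases, picked by sign alone, both library pairs that differ by a drug moved one way in one line and both the other way in another line. HRAS under compound #57 rose by a mean of 0.51 in Hep3B and had -0.31 in MHCC97H, a gap of 0.82 on the log2 scale, and limma's test of the line difference gave an adjusted p of 0.139. HRAS under AZD8055 differed by 0.50 between Hep3B (0.15) and MHCC97H (-0.35), with a limma adjusted p of 0.358. PTPN11 under AZD8055 differed by 0.38 between Hep3B (0.05) and MHCC97H (-0.33), adjusted p = 0.306 in limma. NRAS under compound #57 differed by 0.40 between MHCC97H (0.31) and Huh7 (-0.08) and by 0.22 between Hep3B (0.14) and Huh7, with a limma adjusted p of 0.297 for the 3 lines. None of these passed, and exposure time differs between MHCC97H and the other lines.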

How the results depend on the processing

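Of 88 recomputed counts of called members, 82 stayed within 1.5 times. Most of these were counts of 0 that stayed 0, which says little about stability. For the combination against untreated, 5 members became 0 with no replicate block, 3 with only the libraries compared, and 0 to 3 with a line left out. For compound 57 against untreated, 0 became 1 without replicate 3 (MHCC97H), and the other lines left out gave 0. The replicate block changed no other count of members.

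Among the printed limma values of members, signs turned for those given here, none of them called as reported. With libraries centred on their medians, the differences under compound 57 became -0.013 for PTPN11, -0.012 for NRAS and -0.0080 for NF1, that of NF1 under the combination -0.014, and that of HRAS between Hep3B and Huh7 -0.0020. Leaving out each line in turn gave these ranges under compound 57: -0.065 to 0.15 for NRAS, -0.27 to 0.13 for HRAS, -0.17 to 0.049 for RASA1 and -0.028 to 0.16 for NF1. Under the combination they were -0.20 to 0.045 for PTPN11, -0.36 to 0.30 for HRAS and -0.049 to 0.17 for NF1, and for PTPN11 under AZD8055 -0.16 to 0.11. GAB1 with both drugs against compound 57 alone ran from -0.12 to 0.24. Between Hep3B and Huh7, with each treatment left out, HRAS ran from -0.036 to 0.21 and SOS2 from -0.01 to 0.30. NF1 passed between Hep3B and Huh7 but not with medians set equal or voom, where SOS1 passed in its place, nor without the untreated or the combination libraries. GAB1 passed between MHCC97H and Hep3B without the combination libraries (limma adjusted p = 0.0275). The transcript length moved the level of HRAS, and with it every ratio of NRAS to HRAS. Depth limits HRAS most, at 119 to 376 reads.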
